A study of Mus musculus with 8 samples.

Results

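The Bcl2 family decides whether a cell keeps its mitochondria intact or enters apoptosis, and 10 of its genes were followed across 3 sorted populations of embryonic thymic epithelial cells (TECs). *Bcl2*, *Bcl2l1* and *Mcl1* encode survival proteins, *Bax* and *Bak1* encode the pore-forming effectors, and *Bcl2l11*, *Bid*, *Bbc3*, *Pmaip1* and *Bmf* encode BH3-only proteins. The genes were found by symbol in a table of 55450 genes, and all 10 passed a filter on low counts that kept 21451 genes. TECs were obtained at embryonic day 17 from thymuses of mouse embryos carrying RANK-Venus and CCL21a-tdTomato, a fluorescent reporter of *Tnfrsf11a* (RANK) and a tdTomato knock-in at the chemokine gene *Ccl21a*. Sorting on the reporters gave CCL21+RANK- cells (3 libraries), CCL21-RANK+ cells (3 libraries) and CCL21-RANK- cells (2 libraries). All 3 populations share this reporter genotype. The study gated TECs as EpCAM+CD45- cells and told the populations apart by the reporters, so that each may hold TECs of more than one kind. For brevity they are called CCL21+, RANK+ and double-negative TECs. Total expected counts per library ran from 42751858 to 71625319.

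Survival proteins of the family are known to hold Bax and Bak in check at the mitochondrial outer membrane. BH3-only proteins are made or activated under stress, bind into a groove of the survival proteins and so release the effectors, which then open pores that let cytochrome c out. Developing medullary TECs turn over continuously, and RANK, a receptor of the TNF receptor family, acts through NF-κB in the cells that come to express Aire.

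What joins these proteins is the BH3 motif, the short helix by which a BH3-only protein docks into a survival protein. The coding bases of its core are shown for 9 members because they place survival proteins, effectors and BH3-only proteins in one family. They were read from the GRCm38 genome and GENCODE M21, 5′ to 3′ on the coding strand, and the capitals mark the codon of the conserved leucine and the codons of the small residue and the aspartate that follow it.

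Bcl2, chr1:106712575-106712601, minus strand: CTCcgccgggctGGGGATgacttctct

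Bcl2l1, chr2:152829697-152829723, minus strand: CTGagagaggcaGGCGATgagtttgaa

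Mcl1, chr3:95659436-95659462, plus strand: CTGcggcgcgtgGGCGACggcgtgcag

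Bax, chr7:45465997-45466023, minus strand: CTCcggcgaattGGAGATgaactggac

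Bak1, chr17:27022531-27022557, minus strand: CTTgctctcatcGGAGATgatattaac

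Bcl2l11, chr2:128147150-128147176, plus strand: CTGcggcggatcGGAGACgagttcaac

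Bid, chr6:120897289-120897315, minus strand: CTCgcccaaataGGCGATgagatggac

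Bbc3, chr7:16313773-16313799, plus strand: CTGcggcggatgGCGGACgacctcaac

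Bmf, chr2:118545100-118545126, minus strand: CTTcagtgtattGCAGACcagttccat

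Each stretch lies within 1 coding exon, exon 1 in *Bcl2* and *Mcl1*, exon 2 in *Bcl2l1*, exon 3 in *Bax*, *Bcl2l11* and *Bbc3*, and exon 4 in *Bak1*, *Bid* and *Bmf*. The codon before the aspartate starts with GG, as glycine codons do, in 7 of the 9 stretches and with GC in 2, those of the BH3-only genes *Bbc3* and *Bmf*.

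Levels are given as RPKM, the count scaled to exon length and to the total of the library, which allows genes of different length to be compared. A gene was called when edgeR's quasi-likelihood test gave a Benjamini-Hochberg adjusted p under 0.05 over all genes tested, with a fold over 1.5 and a mean above 1 RPKM in the higher group. By this rule 4 of the 10 members were higher in RANK+ than in CCL21+ TECs (*Pmaip1*, *Bcl2l11*, *Bcl2l1* and *Bax*) and 1 was lower (*Bcl2*). The background was large, since 30.9% of all tested genes were called in this comparison, 15.4% higher and 15.4% lower. Against double-negative TECs, RANK+ TECs had 2 members higher (*Pmaip1* and *Bcl2l1*) and 1 lower (*Bcl2*), with 29.5% of all genes called, 14.4% higher and 15.1% lower. DESeq2 called 5 members higher in this comparison, *Bax*, *Mcl1* and *Bbc3* in addition, and the same 1 lower, where it called 16.3% of all tested genes higher and 12.6% lower. CCL21+ and double-negative TECs differed in 1 member, *Bcl2l11*, which was lower in CCL21+ TECs, where 8.02% of all genes were called, 4.35% higher and 3.66% lower. The median log2 fold change of the 10 members was 0.30 for RANK+ over CCL21+ TECs beside 0.11 over all tested genes. The corresponding medians were 0.09 beside 0 for CCL21+ over double-negative TECs and 0.30 beside 0.06 for RANK+ over double-negative TECs. The comparisons share libraries and are therefore not independent of each other.

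**Figure D1:**
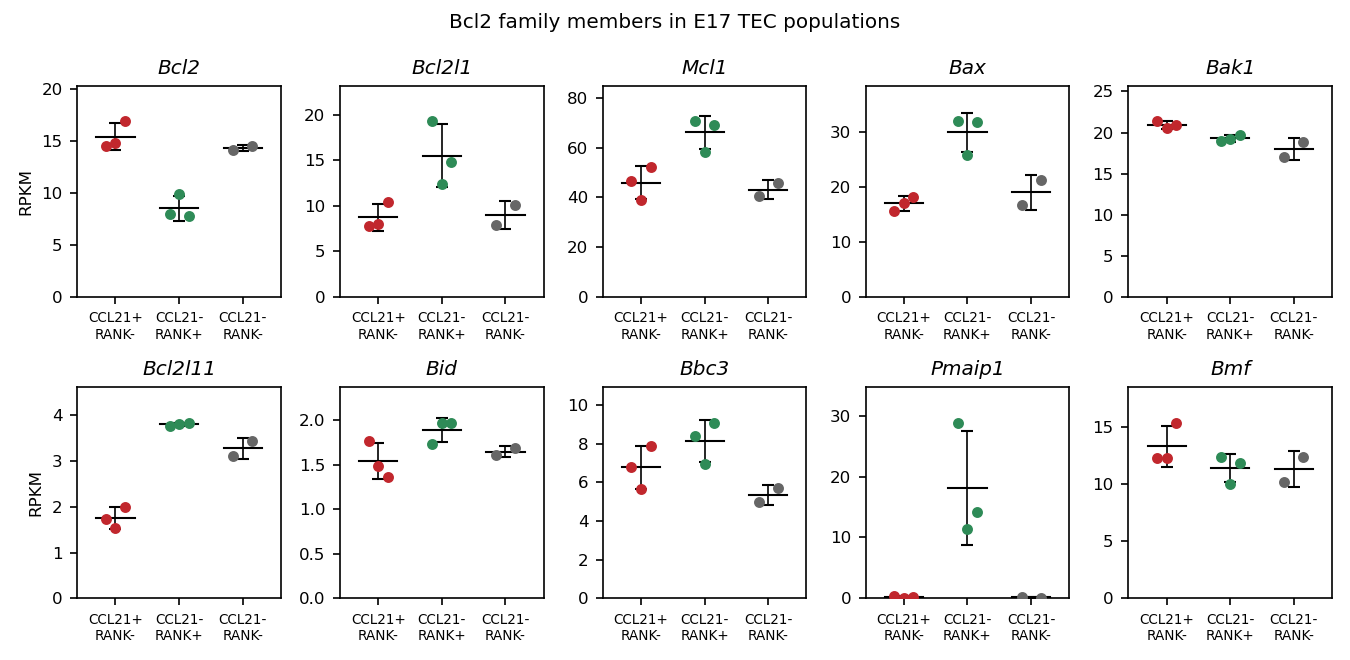
RPKM of each of the 10 members (linear axis from 0, a separate scale for each gene) in the 3 TEC populations. Each point is 1 library, the horizontal line is the mean and the bar is ± SD (n = 3, 3 and 2). The *Pmaip1* points of the RANK+ population lie between 11.4 and 28.9 RPKM while all others lie at or below 0.454. The RANK+ points of *Bcl2* (7.72 to 9.90 RPKM) all lie below those of both other populations.

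Among the 3 survival members, *Mcl1* had the highest level in every library and *Bcl2* and *Bcl2l1* exchanged places between populations. *Bcl2* (chr1:106538178-106714274), the founding member, encodes a long-lived survival protein. It was at 14.5, 14.8 and 16.9 RPKM in the 3 CCL21+ libraries, 7.91, 9.90 and 7.72 RPKM in the RANK+ libraries, and 14.1 and 14.5 RPKM in the double-negative libraries. All RANK+ libraries lay below every other library. The log2 fold change was -0.97 (SE 0.13, adjusted p = 0.000206 by edgeR's quasi-likelihood test), or 1.95-fold lower, against CCL21+ TECs. It was -0.86 (SE 0.14, edgeR adjusted p = 0.000874) against double-negative TECs. Between CCL21+ and double-negative TECs the value was 0.10 (SE 0.15, edgeR adjusted p = 0.729), and their libraries overlapped.

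*Bcl2l1* (chr2:152780668-152831728) encodes Bcl-xL, a survival protein that neutralises both effectors, and also the shorter death-promoting form Bcl-xS, which a gene-level count cannot separate. Its levels were 7.74, 7.96 and 10.4 RPKM in CCL21+ TECs, 19.3, 12.4 and 14.8 RPKM in RANK+ TECs, and 7.93 and 10.1 RPKM in double-negative TECs. The 3 RANK+ libraries were the highest 3 of the 8. *Bcl2l1* was 1.63-fold higher in RANK+ than in CCL21+ TECs (log2 fold change 0.71, SE 0.14, edgeR adjusted p = 0.00229) and 1.58-fold higher than in double-negative TECs (0.66, SE 0.16, edgeR adjusted p = 0.00746). Both calls sat close to the 1.5-fold bound. Without RANK+ replicate 1, the highest library, the log2 values were 0.57 and 0.53 and neither was called, and without double-negative replicate 1 the second was 0.56 with an edgeR adjusted p of 0.0783.

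The ratio of *Bcl2l1* to *Bcl2* levels, per length, showed the exchange within each library. It was 0.536, 0.537 and 0.618 in CCL21+ TECs and 0.563 and 0.693 in double-negative TECs. In RANK+ TECs it was 2.44, 1.25 and 1.92, so that *Bcl2l1* exceeded *Bcl2* in these 3 libraries and in no other.

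*Mcl1* (chr3:95658788-95663176) encodes a survival protein with a very short half-life, whose amount is set by continuous synthesis and by ubiquitin ligases. It was at 46.5, 39.0 and 52.2 RPKM in CCL21+ TECs, 70.7, 58.4 and 69.3 RPKM in RANK+ TECs, and 40.4 and 45.9 RPKM in double-negative TECs. The RANK+ libraries were again above all others. The log2 fold changes of RANK+ TECs were 0.41 (SE 0.10, edgeR adjusted p = 0.00617) against CCL21+ TECs and 0.50 (SE 0.11, edgeR adjusted p = 0.00504) against double-negative TECs. Both passed the adjusted p but were under 1.5-fold, so *Mcl1* was not called by edgeR. With the size factors of DESeq2 or with DESeq2 itself the second value was 0.64 and called. Of the summed RPKM of the 3 survival members, *Mcl1* took 63.1% to 67.7% in CCL21+ libraries, 64.8% to 65.1% in double-negative libraries and 72.2% to 75.5% in RANK+ libraries. The share of *Bcl2* was 21.05% to 24.0%, 20.6% to 22.6% and 8.08% to 12.3% in the same order.

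The effectors did not move together. *Bax* (chr7:45461697-45466898) encodes the effector that waits in the cytosol and moves to mitochondria when activated. Its levels were 15.7, 17.1 and 18.3 RPKM in CCL21+ TECs, 32.0, 25.9 and 31.9 RPKM in RANK+ TECs, and 16.8 and 21.3 RPKM in double-negative TECs. All RANK+ libraries exceeded every other library. *Bax* was 1.62-fold higher in RANK+ than in CCL21+ TECs (log2 fold change 0.69, SE 0.11, edgeR adjusted p = 0.00072). Against double-negative TECs the log2 value was 0.54 (SE 0.13, edgeR adjusted p = 0.00695), a fold of 1.45 that was not called. This value depended on scaling, and with the size factors of DESeq2 or with DESeq2 itself it was 0.68 and called. *Bax* shares 192 exon bases on the same strand with the predicted gene Gm45808, whose estimated count was at most 6.24% of that of *Bax* in any library.

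*Bak1* (chr17:27019810-27029009) encodes the effector that resides in the mitochondrial membrane. It was at 21.4, 20.5 and 20.9 RPKM in CCL21+ TECs, 18.9, 19.2 and 19.7 RPKM in RANK+ TECs, and 17.03 and 18.9 RPKM in double-negative TECs. The log2 fold change of RANK+ over CCL21+ TECs was -0.24 (SE 0.10, edgeR adjusted p = 0.0614), and over double-negative TECs it was -0.01 (SE 0.11, edgeR adjusted p = 0.934), with a sign that changed with the scaling. No comparison was called for *Bak1*. The ratio of *Bax* to *Bak1* levels, per length, was 0.734, 0.833 and 0.876 in CCL21+ libraries, 1.69, 1.35 and 1.62 in RANK+ libraries, and 0.984 and 1.13 in double-negative libraries. The ratio of *Bax* to *Bcl2* was 1.09, 1.15 and 1.08 in CCL21+ libraries, 4.05, 2.62 and 4.14 in RANK+ libraries, and 1.19 and 1.47 in double-negative libraries. In both ratios the RANK+ libraries were the highest 3.

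The BH3-only members held the largest difference among the 10 members, that of *Pmaip1*, and also members that were not called. *Pmaip1* (chr18:66458533-66465565) encodes Noxa, which binds chiefly the survival proteins Mcl1 and A1 and is a known p53 target. It was at 0.454, 0.024 and 0.159 RPKM in CCL21+ TECs, from 74, 3 and 24 counts. It was at 28.9, 11.4 and 14.3 RPKM in RANK+ TECs, from 4521, 1556 and 1666 counts, and at 0.141 and 0.128 RPKM in double-negative TECs, from 26 and 25 counts. The lowest RANK+ library was thus far above the highest of the other populations, and within the RANK+ population replicate 1 was the highest.

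*Pmaip1* was 74.9-fold higher in RANK+ than in CCL21+ TECs (log2 fold change 6.23, SE 0.66, edgeR adjusted p = 3.95e-05) and 121.8-fold higher than in double-negative TECs (6.93, SE 0.82, edgeR adjusted p = 0.000101). The first log2 value ran from 5.79 to 7.44 when each library was left out in turn. It was 5.79 without RANK+ replicate 1 and 7.44 without CCL21+ replicate 1, the library with most *Pmaip1* counts of its group, and it remained called each time. CCL21+ and double-negative TECs gave no call (0.70, SE 0.78, edgeR adjusted p = 0.645), and that value was -0.51 without CCL21+ replicate 1. The ratio of *Mcl1* to *Pmaip1* levels was 2.45, 5.14 and 4.86 in RANK+ libraries and between 102 and 1634 in the other 5.

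In bulk RNA, a few cells with much of a transcript and many cells with little cannot be told apart, and this holds for every value given here. Genes used here as markers of other cells moved with the RANK+ population. Of 9 B cell and myeloid markers, 4 were called higher in RANK+ than in CCL21+ TECs, beside 15.4% of all tested genes. Their summed level was 62.9, 19.1 and 21.9 RPKM in the RANK+ libraries, mostly of *Lyz2* (52.3, 14.7 and 17.8 RPKM), and at most 0.282 RPKM in every other library, in which 3 to 5 of the 9 were at 0. RANK+ replicate 1 was the highest library for *Lyz2* as it was for *Pmaip1*. Thymocyte markers, led by *Rag1*, summed to 20.5, 9.20 and 16.8 RPKM in RANK+, 10.8, 4.67 and 6.31 RPKM in CCL21+ and 3.70 and 3.24 RPKM in double-negative libraries. Of these 9 markers, 2 were called higher in RANK+ than in CCL21+ TECs, and *Ptprc*, which encodes the pan-leukocyte protein CD45 used to remove blood cells, reached at most 0.576 RPKM in any library. The defining genes of B cells and macrophages were also higher in RANK+ libraries. *Spi1* averaged 1.70 RPKM there against 0.0234 RPKM in CCL21+ TECs and *Adgre1* 2.199 against 0.00345 RPKM, and *Csf1r* reached 1.74 RPKM and *Cd79a* 0.935 RPKM in the highest RANK+ library. The paper describes ectopic transcription across the genome in Aire-expressing medullary TECs, and it calls the sorted CCL21+ and RANK+ TECs highly purified. Genes with a count numbered 24154 to 26954 in RANK+ libraries and 20489 to 22808 in the others. Whether these transcripts came from other cells or from TECs was not tested, nor was the part of either in the *Pmaip1* difference.

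The labelled cell type was checked in the same way. All 9 thymic epithelial markers were detected in all 8 libraries, but their levels moved with the RANK+ population. They summed to 4944, 4870 and 5597 RPKM in CCL21+, 1996, 2113 and 1771 RPKM in RANK+ and 4330 and 4630 RPKM in double-negative libraries. In RANK+ against CCL21+ TECs 5 of the 9 were called lower, *Krt18* (5.44-fold), *Krt8*, *Krt5*, *Foxn1* and *Psmb11* (13.7-fold), which encodes a proteasome subunit of cortical TECs, and 2 were called higher, *Aire* and *Epcam*. *Epcam* was at 156, 123 and 121 RPKM in RANK+ libraries and between 49.5 and 83.7 RPKM elsewhere. *Aire*, which marks a mature medullary TEC state, was at 131, 94.1 and 114 RPKM in RANK+ libraries and at most 0.810 RPKM in the other 5. Parathyroid markers, led by *Chga*, summed to 7122, 1750 and 1955 RPKM in the CCL21+ libraries and to between 11.1 and 24.9 RPKM in the other 5. All 4 of them were called higher in CCL21+ than in either other population, and their part in the differences involving CCL21+ TECs was not tested. Mesenchymal markers, led by *Col1a1*, summed to 43.4, 21.3 and 27.4 RPKM in RANK+ libraries and at most 3.37 RPKM elsewhere. Of the 6, *Col1a1*, *Dcn* and *Pdgfrb* were called higher in RANK+ than in CCL21+ TECs. *Twist1* (0.0692 against 0.953 RPKM on average) and *Pdgfra* (0.0680 against 0.196 RPKM) were on the other side, below the 1 RPKM needed for a call. Endothelial markers summed to 4.205, 2.35 and 1.90 RPKM in RANK+ libraries and at most 0.467 RPKM elsewhere. Erythroid markers, led by *Hbb-bs*, varied within populations and between them, from 6.61 to 164 RPKM in CCL21+ libraries, from 184 to 300.3 RPKM in RANK+ libraries, and at 453 and 57.1 RPKM in double-negative libraries.

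*Bcl2l11* (chr2:128126038-128162547) encodes Bim, which binds all survival proteins and is required for the deletion of self-reactive thymocytes. It was at 1.73, 1.54 and 2.00 RPKM in CCL21+ TECs, 3.77, 3.81 and 3.84 RPKM in RANK+ TECs, and 3.12 and 3.44 RPKM in double-negative TECs. The CCL21+ libraries were the lowest 3 of the 8. *Bcl2l11* was 2.01-fold higher in RANK+ than in CCL21+ TECs (log2 fold change 1.01, SE 0.11, edgeR adjusted p = 4.58e-05). It was 1.87-fold lower in CCL21+ than in double-negative TECs (-0.91, SE 0.12, edgeR adjusted p = 0.00152), the only member called in this comparison. RANK+ over double-negative TECs gave 0.10 (SE 0.12, edgeR adjusted p = 0.527). The low level of *Bcl2l11* was thus that of the CCL21+ libraries, whereas for *Pmaip1*, *Bcl2*, *Bcl2l1* and *Mcl1* the libraries that stood apart were those of the RANK+ population.

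*Bmf*, *Bbc3* and *Bid* were not called in any comparison by edgeR. *Bmf* (chr2:118528757-118549687) encodes a protein that is held at the cytoskeleton until cells detach. It was the most abundant BH3-only member outside the RANK+ population, at 12.3, 12.3 and 15.4 RPKM in CCL21+ and 10.2 and 12.4 RPKM in double-negative libraries, and at 12.4, 10.003 and 11.9 RPKM in RANK+ libraries. The populations overlapped, and the log2 fold change of RANK+ over CCL21+ TECs was -0.34 (SE 0.10, edgeR adjusted p = 0.0168), under the fold bound. *Bbc3* (chr7:16308393-16318205) encodes Puma, a p53 target that binds all survival proteins. It was at 6.79, 5.68 and 7.89 RPKM in CCL21+, 8.41, 6.93 and 9.10 RPKM in RANK+ and 4.96 and 5.71 RPKM in double-negative libraries. The log2 fold change of *Bbc3* was 0.49 (SE 0.16, edgeR adjusted p = 0.0297) in RANK+ over double-negative TECs, which did not overlap, and 0.15 (SE 0.14, edgeR adjusted p = 0.411) over CCL21+ TECs, which did. The first value was 0.63 and called with the size factors of DESeq2 or with DESeq2 itself.

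*Bid* (chr6:120891930-120916853) encodes the protein that caspase-8 cleaves to link death receptors to mitochondria. It was at 1.76, 1.49 and 1.36 RPKM in CCL21+, 1.74, 1.97 and 1.97 RPKM in RANK+ and 1.60 and 1.69 RPKM in double-negative libraries, with log2 fold changes between -0.09 and 0.18 in the 3 comparisons. The *Bid* values are uncertain. The gene shares 628 exon bases with *Bcl2l13* on the opposite strand, whose count reached 2027% of that of *Bid*, and whether strand was used in counting is not given in the sources used here.

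**Figure D2:**
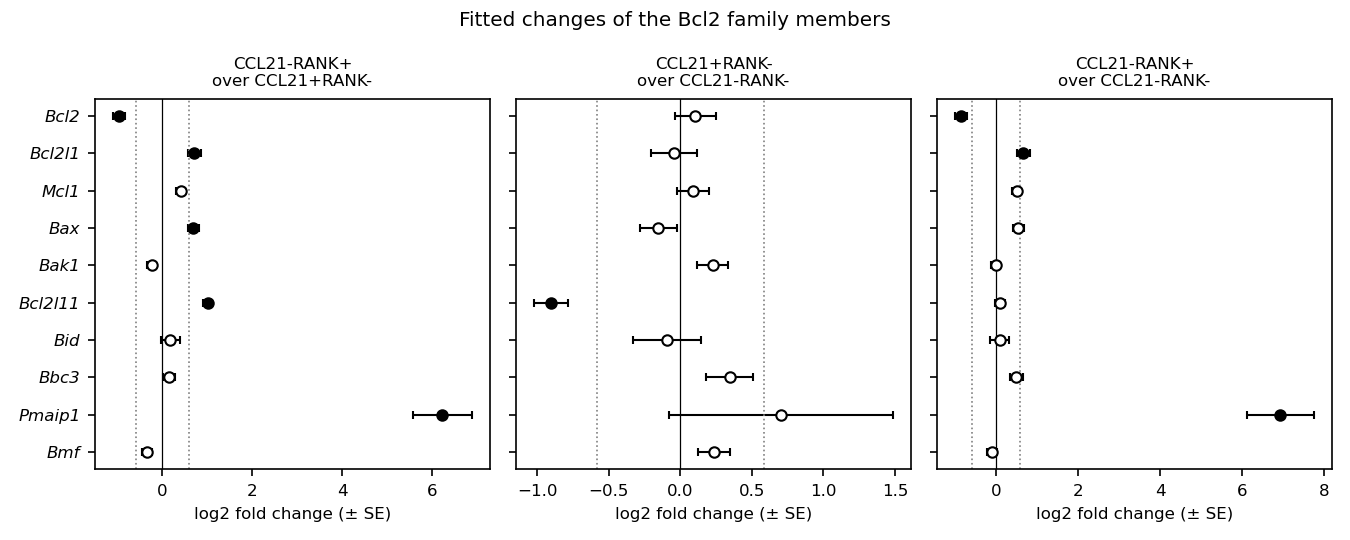
Log2 fold change ± SE of the 10 members in the 3 comparisons by edgeR (each panel has its own horizontal scale). Filled points were called, open points were not, and dotted lines mark 1.5-fold. *Pmaip1* lies at 6.23 and 6.93 in the panels of RANK+ TECs, and the sign of *Bak1* (-0.01) in the last panel changed with the scaling.

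Over the 10 members, the RPKM of the RANK+ and CCL21+ libraries did not overlap for 7, whereas this held for 59.8% of all tested genes. With 3 libraries against 3, an exact permutation test of a single gene cannot give a two-sided p below 0.1, so that the calls rest on the spread estimated over all genes.

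The 5 BH3-only members differed in how they made up the pool. *Bmf* took 53.3% to 58.6% of their summed RPKM in CCL21+ libraries, 51.0% to 53.1% in double-negative libraries and 22.4% to 29.4% in RANK+ libraries. *Pmaip1* took at most 1.97% and 0.704% in the first 2 and 33.3% to 52.3% in RANK+ libraries. The summed RPKM itself was 21.1 to 26.8 in CCL21+, 20.1 to 23.4 in double-negative and 34.1 to 55.2 in RANK+ libraries.

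**Figure D3:**
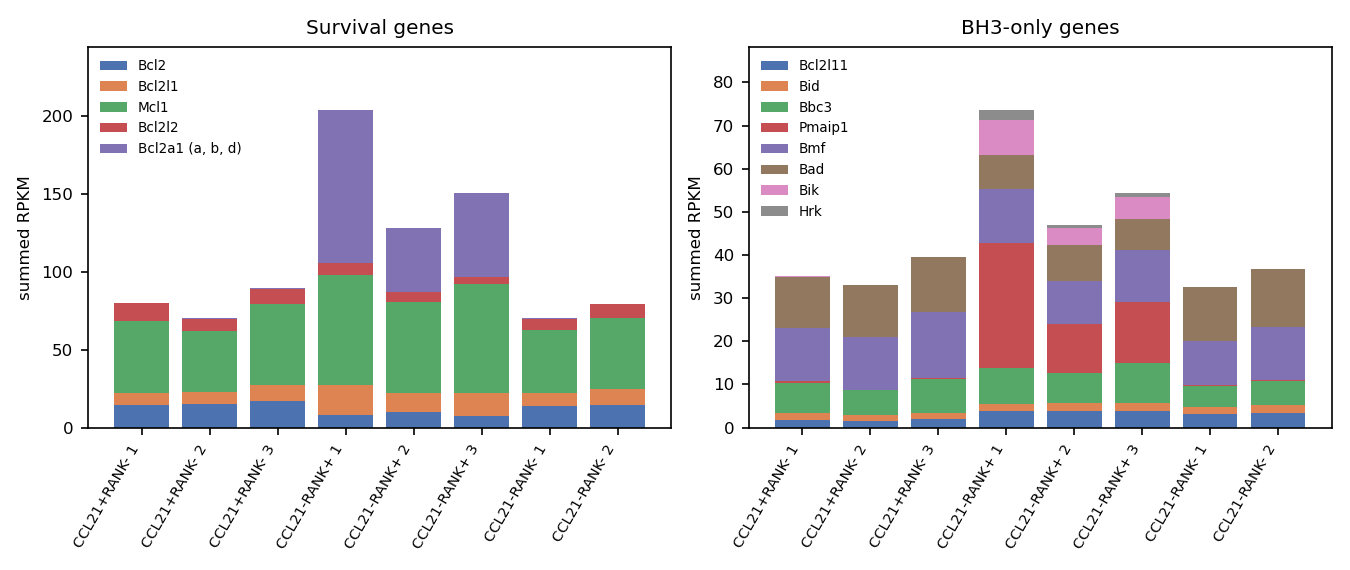
Summed RPKM (stacked bars from 0) of the survival genes and of the BH3-only genes in each of the 8 libraries, relatives outside the 10 members included. The *Bcl2a1* genes form 32.0% to 48.2% of the survival bars in the 3 RANK+ libraries and at most 0.665% elsewhere.

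The other genes of the family were read from a list of 15, of which 14 were tested and *Bcl2l10* was at 0 in all libraries. In RANK+ over CCL21+ TECs 6 of the 14 were higher and 3 lower, and in RANK+ over double-negative TECs the counts were also 6 and 3. Of all tested genes 15.4% were higher and 15.4% lower in the first comparison, and 14.4% and 15.1% in the second. None was called between CCL21+ and double-negative TECs by edgeR or by DESeq2, with 5 at an unadjusted p under 0.05 by edgeR, 3 of them higher and 2 lower. In that comparison edgeR called 8.02% of all tested genes, so that few calls among 14 genes would stand out from none.

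The relatives that were higher were the A1 genes *Bcl2a1a*, *Bcl2a1b* and *Bcl2a1d*, the BH3-only genes *Bik* and *Hrk*, and *Bcl2l14*, in both comparisons. A1 is a short-lived survival protein induced by NF-κB and, like Mcl1, a partner of Noxa. *Bcl2a1d* was at 51.9, 20.8 and 29.7 RPKM in RANK+ libraries, 0.117, 0.188 and 0.0858 RPKM in CCL21+ libraries, and 0.103 and 0.0162 RPKM in double-negative libraries. *Bcl2a1b* was at 42.3, 18.9 and 22.2 RPKM in RANK+ libraries and at most 0.239 RPKM elsewhere. Both exceeded the levels of *Bcl2* and *Bcl2l1* in all 3 RANK+ libraries, and both were highest in replicate 1, as were *Pmaip1* and *Lyz2*. The log2 fold changes over CCL21+ TECs were 7.94 (SE 0.51, edgeR adjusted p = 1.96e-06) for *Bcl2a1d* and 7.40 (SE 0.67, edgeR adjusted p = 1.46e-05) for *Bcl2a1b*. *Bcl2a1a* was at 3.78, 1.19 and 1.75 RPKM in RANK+ libraries and had no count in the double-negative libraries, a difference of at least 42.5-fold against a floor of 3 counts per library. These copies are nearly identical and their estimated counts were fractional, so that the division of reads among them is uncertain. A1 is also abundant in blood cells, whose markers are given above. The part of such cells, or of ectopic transcription in TECs, in this difference was not tested.

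*Hrk* encodes a BH3-only protein best known from neurons. It had no count in the CCL21+ libraries, 4 and 2 counts in the double-negative libraries, and 719, 188 and 247 counts (2.21, 0.660 and 1.02 RPKM) in the RANK+ libraries, at least 129.9-fold higher than CCL21+ against the same floor. Without RANK+ replicate 1 its mean was under 1 RPKM and it was not called. *Bik*, a further BH3-only gene, was at 8.08, 3.89 and 5.18 RPKM in RANK+ libraries, 0.179, 0.0137 and 0.103 RPKM in CCL21+ libraries, and 0.0186 and 0 RPKM in double-negative libraries, with a log2 fold change of 5.67 (SE 0.69) over CCL21+ TECs. *Bcl2l14* was at 10.8, 6.38 and 7.20 RPKM in RANK+ libraries and at most 0.721 RPKM elsewhere. For all these genes the RANK+ libraries stood apart from the other 5, and replicate 1 was the highest.

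The lower relatives were modest in size. *Bcl2l2*, which encodes the survival protein Bcl-w, fell by 0.78 (SE 0.17) on the log2 scale in RANK+ against CCL21+ TECs, a call that was lost without RANK+ replicate 3 (-0.58). *Bad*, a BH3-only gene controlled by growth factor signalling, fell by 0.75 (SE 0.11), with 8.04, 8.26 and 7.19 RPKM against 11.9, 11.9 and 12.7 RPKM. *Bnip3l*, which encodes a mitophagy receptor, was the most abundant gene of the family in the CCL21+ and double-negative libraries, at 112 to 125 and 103 to 109 RPKM, and fell by 1.03 (SE 0.11) to 54.3 to 68.8 RPKM in RANK+ TECs. *Bad* and *Bnip3l* were also lower than in double-negative TECs, as was *Bcl2l12* (-0.71, SE 0.19, edgeR adjusted p = 0.0113), while *Bcl2l2* was not called there (-0.51). The *Bcl2l12* call was lost with the size factors of DESeq2 or DESeq2 itself (-0.58), with at least 10 counts in every library (-0.51), without RANK+ replicate 1 (-0.57) and without double-negative replicate 2 (-0.65, edgeR adjusted p = 0.0986). *Bok*, *Bnip3* and *Bcl2l13* were not called in any comparison. *Bcl2l15* was not called because its mean was 0.965 RPKM in RANK+ TECs, although its log2 fold change over double-negative TECs was 2.81 (SE 0.50, edgeR adjusted p = 0.00128).

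**Figure D4:**
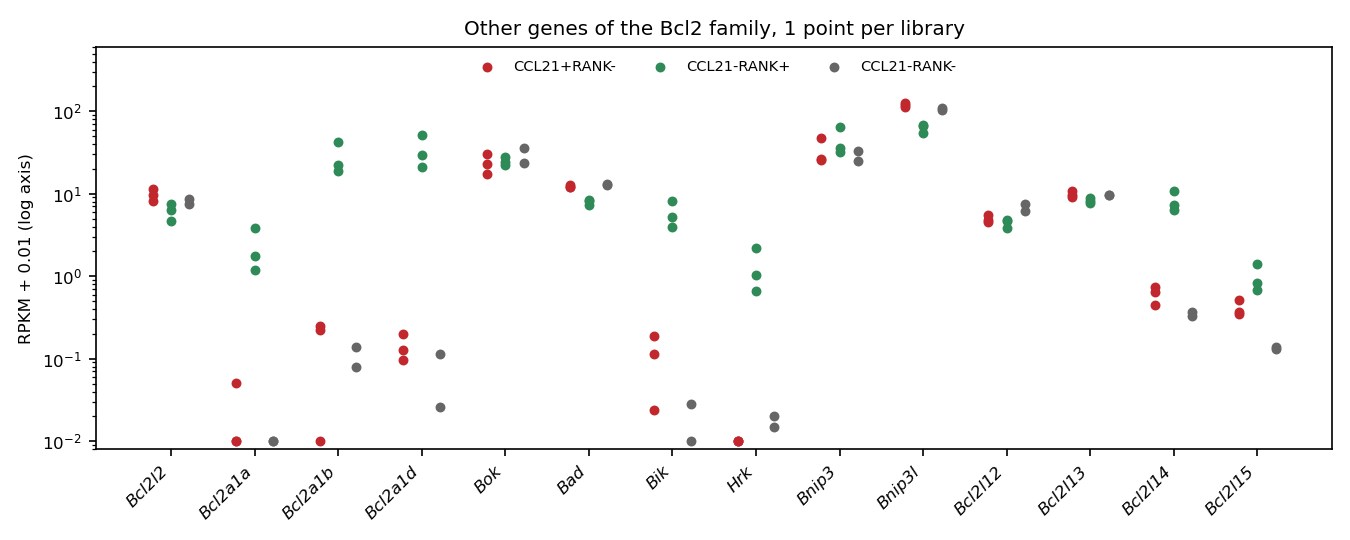
RPKM plus 0.01 (log axis) of the 14 tested relatives, 1 point per library, coloured by population. The RANK+ points of *Bcl2a1a*, *Bcl2a1b*, *Bcl2a1d*, *Bik*, *Hrk* and *Bcl2l14* stand above all others, and those of *Bnip3l* (54.3 to 68.8 RPKM) stand below.

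With the A1 genes and *Bcl2l2* included, the summed survival RPKM was 70.4 to 89.4 in CCL21+, 70.1 to 79.1 in double-negative and 127.9 to 203.3 in RANK+ libraries. Within it *Bcl2* took 18.04% to 21.1%, 18.3% to 20.1% and 3.89% to 7.74%.

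Beyond the family, the apoptosis machinery was read from 6 further lists. With the relatives they hold 83 genes, of which 82 were tested. In RANK+ over CCL21+ TECs 20 were higher and 18 lower, with a median log2 fold change of 0.10 beside 0.11 over all genes. In RANK+ over double-negative TECs 16 were higher and 21 lower, and in CCL21+ over double-negative TECs 1 was higher and 2 were lower. Their median was 0.02 beside 0.06 and 0.04 beside 0 in these 2 comparisons. Of all tested genes 15.4% were called higher and 15.4% lower in RANK+ over CCL21+ TECs. The shares were 14.4% and 15.1% in RANK+ over double-negative TECs, and 4.35% and 3.66% in CCL21+ over double-negative TECs. The same shares stand beside the counts of each list below.

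Downstream of the pore, 2 of 13 apoptosome and caspase genes were higher and 3 lower in RANK+ than in CCL21+ TECs, beside 15.4% of all tested genes each way. *Cycs*, which encodes cytochrome c, was at 19.3, 17.9 and 21.9 RPKM in RANK+ against 6.69, 5.63 and 7.91 RPKM in CCL21+ libraries (log2 fold change 1.44, SE 0.12, edgeR adjusted p = 8.95e-06), and it was also higher than in double-negative TECs (1.21, SE 0.14). *Casp9*, the initiator caspase that cytochrome c activates through Apaf1, fell by 0.91 (SE 0.11). Against double-negative TECs 1 gene was higher and 4 were lower, *Casp9* (-0.98) among them.

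Of 10 genes of the IAP family, which encode caspase inhibitors and relatives, 3 were higher in RANK+ than in CCL21+ TECs. Of all tested genes 30.9% were called in this comparison, 15.4% higher and 15.4% lower, so that the number of calls was near that share. None was called lower by edgeR or DESeq2, and 1 was lower at an unadjusted p under 0.05. *Birc3*, a target of NF-κB that encodes cIAP2, was at 66.2, 50.6 and 52.96 RPKM against 21.9, 19.8 and 22.4 RPKM, and at 16.1 and 15.4 RPKM in double-negative libraries (log2 fold changes 1.28, SE 0.11, and 1.72, SE 0.13). *Birc5* encodes survivin, which acts in cell division. It was at 5.56, 6.95 and 8.04 RPKM in RANK+, 1.52, 1.41 and 2.15 RPKM in CCL21+ and 5.01 and 5.79 RPKM in double-negative libraries, and so was lowest in CCL21+ TECs (-1.68, SE 0.21, edgeR adjusted p = 0.00115 against double-negative TECs). *Naip2*, an inflammasome receptor gene of macrophages with close copies, was at 2.496, 1.59 and 1.74 RPKM in RANK+ libraries and at most 0.1003 RPKM elsewhere.

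Of 10 death receptor genes, 4 were higher and 2 lower in RANK+ than in CCL21+ TECs, beside 15.4% of all tested genes each way. *Fas*, the receptor of Fas ligand, differed in all 3 comparisons, at 15.9, 10.5 and 13.1 RPKM in RANK+, 2.10, 1.73 and 1.24 RPKM in CCL21+ and 0.324 and 0.379 RPKM in double-negative libraries. Its log2 fold changes were 2.82 (SE 0.24) for RANK+ over CCL21+, 2.28 (SE 0.29) for CCL21+ over double-negative and 5.10 (SE 0.33) for RANK+ over double-negative TECs, so that the populations formed 3 separate levels. *Ripk3*, the kinase of necroptosis, was higher (2.52, SE 0.27) and its substrate gene *Mlkl* was lower (-1.14, SE 0.34, edgeR adjusted p = 0.0167) in RANK+ than in CCL21+ TECs. The *Mlkl* call was lost without CCL21+ replicate 1 (-0.83, edgeR adjusted p = 0.0751) and without RANK+ replicate 3 (-1.095, edgeR adjusted p = 0.0532). *Tnfrsf1a*, which encodes a TNF receptor, was at 11.0, 12.4 and 11.5 RPKM in RANK+ libraries and at 42.2, 37.3 and 44.4 RPKM in CCL21+ libraries (-1.94, SE 0.11). Against double-negative TECs *Tnfrsf1a* was also lower (-1.90), and *Ripk3* (3.28) was higher.

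Of 16 genes of the p53 pathway, 2 were higher, 5 were lower and 9 were not called in RANK+ against CCL21+ TECs. The shares of all tested genes were 15.4% higher and 15.4% lower. *Phlda3*, which encodes an inhibitor of Akt, was at 18.9, 21.2 and 21.9 RPKM against 65.9, 70.2 and 71.6 RPKM (-1.86, SE 0.12). *Cdkn1a*, which encodes the cell cycle inhibitor p21, was at 23.1, 8.87 and 11.2 RPKM against 5.24, 3.35 and 3.19 RPKM (1.72, SE 0.32), and *Gadd45a* was higher as well (1.52, SE 0.23). *Trp53* itself was not called, at 23.3, 31.6 and 37.0 RPKM against 16.99, 20.5 and 22.5 RPKM. Against double-negative TECs 2 genes of this list were higher, *Cdkn1a* (1.78) and *Gadd45a*, and 7 were lower, *Sesn1* (-1.497) and *Phlda3* (-1.38) among them. The *Gadd45a* call against double-negative TECs was lost without double-negative replicate 1 (1.02, edgeR adjusted p = 0.0575).

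Of 10 stress regulators of BH3-only genes, 2 were higher and 4 lower in RANK+ than in CCL21+ TECs, beside 15.4% of all tested genes each way. *Foxo3*, which encodes a factor known to drive *Bcl2l11* and *Bbc3* when growth factor signalling is low, was at 12.1, 17.5 and 14.3 RPKM against 55.9, 66.8 and 91.6 RPKM and 93.6 and 85.1 RPKM in double-negative libraries. Its log2 fold changes were -2.39 (SE 0.21) and -2.72 (SE 0.22), and *Foxo1* followed at -1.39 (SE 0.10) and -1.36 (SE 0.10). *E2f1*, a cell cycle factor, was higher in RANK+ than in CCL21+ TECs (2.83-fold, edgeR adjusted p = 0.000222), and *Jun* was lower than in CCL21+ (-1.48, SE 0.28) and double-negative TECs (-0.87, SE 0.30, edgeR adjusted p = 0.0343). *Myc* was lower in CCL21+ than in double-negative TECs (-0.999, SE 0.23, edgeR adjusted p = 0.0207). The *Jun* call against double-negative TECs was lost with DESeq2's size factors (edgeR adjusted p = 0.0740), with upper-quartile scaling, with at least 10 counts in every library (0.0932), and without RANK+ replicate 2 or 3 or double-negative replicate 2, where the adjusted p was highest (-0.62, edgeR adjusted p = 0.235). The *Myc* call was lost without CCL21+ replicate 1 or 2 or either double-negative replicate, with an edgeR adjusted p between 0.0614 and 0.128. *Myc* was also 1 of the 2 genes called higher in RANK+ than in CCL21+ TECs (0.60), and that call was lost in 5 of the fits that left out 1 library, those without CCL21+ replicate 1 or 2, RANK+ replicate 2 or 3, or double-negative replicate 1, with an edgeR adjusted p between 0.0505 and 0.112.

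Among 9 genes of Mcl1 turnover and of Bax and Bak partners, *Vdac3* was higher (0.70, SE 0.14) and *Fbxw7* lower (-1.82, SE 0.10) in RANK+ than in CCL21+ TECs. *Fbxw7* encodes the substrate receptor of a ubiquitin ligase that can direct Mcl1 to degradation. It was at 5.18, 5.60 and 4.93 RPKM in RANK+, 18.1, 15.03 and 18.03 RPKM in CCL21+ and 15.7 and 17.6 RPKM in double-negative libraries, with no overlap between the first and the others. The ligase gene *Huwe1* and the deubiquitinase gene *Usp9x*, which also act on Mcl1, were not called in any comparison. Against double-negative TECs *Fbxw7* (-1.79) and *Tmbim6* (-0.60) were lower. *Tmbim6* was close to the fold bound and its call was lost with DESeq2's size factors or DESeq2 (-0.46), with upper-quartile scaling, with either other filter (-0.39 with at least 10 counts in every library), without Gm26917 and Gm42418, and without CCL21+ replicate 2 (-0.57) or RANK+ replicate 3 (-0.53).

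**Figure D5:**
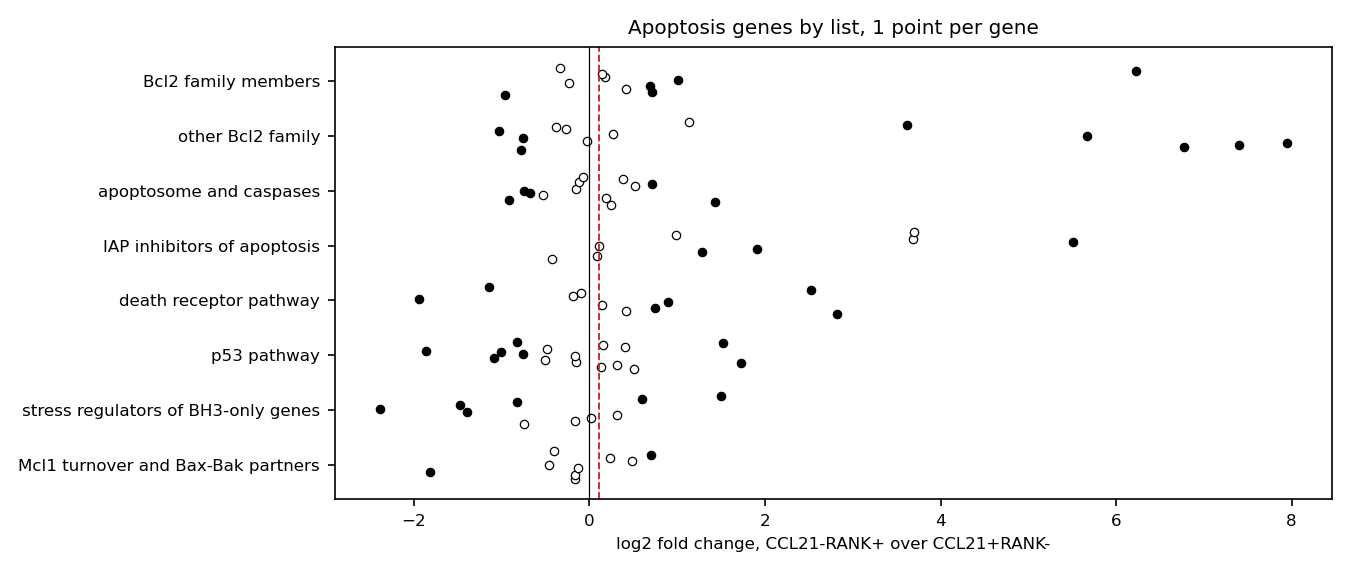
Log2 fold change of RANK+ over CCL21+ TECs for each tested gene, 1 row per list, with the 10 members pooled in 1 row. Filled points were called, the dashed line is the median of all tested genes (0.11), and genes with no count in all libraries of either population (*Hrk*, *Naip1*) are left out. Every row has called genes on both sides of 0 except that of the IAP list, which has 3 to the right. Of all tested genes 15.4% were called higher and 15.4% lower, so that a short list with calls on 1 side does not stand out.

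The genes whose pattern was most like that of *Pmaip1* over the 8 libraries were *Ocln*, which encodes the tight junction protein occludin (Pearson r = 0.996 of log2 CPM), *Slc16a6* (r = 0.993) and *Rnft2* (r = 0.993), of 10950 genes compared. *Ocln* was at 12.6, 8.61 and 10.7 RPKM in RANK+ libraries and between 1.44 and 3.00 RPKM in the other 5. Such values describe the 8 libraries, which form 3 populations, and 393 genes had r above 0.95.

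The promoters of the members were searched for the κB consensus and the p53 half-site, on both strands, in the 250 bases before each start in RefSeq (GRCm38.p6), where 9 of the 10 members and 16 starts were matched. Each motif was found for 2 members. The κB consensus was in 3.90% of all 32851 windows and the p53 half-site in 7.13%. The κB match of *Bcl2l1* lay 242 to 233 bases before 1 of its 3 starts, inside an annotated exon of a longer transcript, and its bases are not printed. The other matches are shown in 30 bases on the strand of the gene, with the matching bases in capitals. A link between matches and calls was not tested.

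Bax, p53 half-site, chr7:45467080-45467109, minus strand: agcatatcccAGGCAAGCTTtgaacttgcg

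Bmf, p53 half-site, chr2:118544781-118544810, minus strand: cccaagtgaaGGGCTTGCCTcttgccgaat

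Bbc3, κB, chr7:16309437-16309466, plus strand: ctggctgccGGGAAACCCCCcgcgccgagg

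The match lay 201 to 192 bases before the start in *Bax*, 213 to 204 in *Bmf* and 137 to 127 in *Bbc3*, where 2 overlapping matches cover 11 bases. *Bax* has 1 start in the table, while in *Bmf* and *Bbc3* the match was found for 1 of 3 starts and lies within the span of the gene, outside annotated exons. A match is a run of letters and not a bound site. None of the 12 relatives with a window held either motif.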

How the data were processed

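RNA from sorted E17 TECs was sequenced, and the deposited table gives expected counts per gene for 8 libraries. Per the submitters' processing notes, the authors used bcl2fastq 2.20, Trimmomatic, STAR 2.5.1, RSEM 1.3.1 and mm10. The paper names the Illumina TruSeq Stranded Total RNA kit, whereas the sample labels name NEBNext Ultra II Directional, so the kit is not settled. The strand setting of counting is not given in the sources used here. All 55450 identifiers matched GENCODE M21. Libraries were grouped by their labels, and each was 1 replicate. The labels do not say whether they came from separate embryos, so p-values measure the spread between libraries.

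Expected counts were rounded and tested with edgeR 4.0.16 (R 4.3.3, TMM, filterByExpr, quasi-likelihood test, Benjamini-Hochberg over 21451 genes), with all 8 libraries in 1 fit. DESeq2 1.42.0, other scalings and filters, the replicate block and leaving out each library were alternatives. RPKM used unrounded counts, library totals and summed exon length. The predicted genes Gm26917 and Gm42418 held 6.89% to 19.4% and 1.47% to 10.7% of counts, which lowers RPKM unevenly. In each library 4.47% to 5.94% of values were not whole.

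Members and lists were chosen with earlier results of these data known. The rule for named genes took all members, all tested relatives, and up to 3 called genes of largest log2 fold change per list and comparison. One of the genes so named is not reported here. *Mlkl*, *Trp53*, *Huwe1* and *Usp9x* were added with values known. Scripts were tested on simulated data.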

Additional observations from a re-analysis of the deposited data

How the results depend on the processing

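Of 477 member values under other settings, 438 kept their direction and their side of the threshold, 3 lost a call, 15 gained one and 21 changed sign. In RANK+ over double-negative TECs, 3 members were called, and 6 were called with adjusted p alone, with DESeq2's size factors, with upper-quartile scaling or with the DESeq2 test, and 5 with at least 10 counts in every library, a filter that drops *Pmaip1*. These scalings moved the median of all genes from 0.06 to 0.20 and 0.18 on the log2 scale. Other apoptosis genes called between CCL21+ and double-negative TECs numbered 3, and 5 with adjusted p alone or with the replicate block. Adjusted p alone gave 11516 genes in place of 6618 (RANK+ over CCL21+) and 10501 in place of 6332 (over double-negative). Leaving out each library gave 657 to 2066 genes in place of 1720 between CCL21+ and double-negative TECs, with 772 and 657 without double-negative replicate 1 and 2, which leave 1 library assumed to vary like the others. The cause of these changes was not tested.

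The values that changed sign were uncalled. *Bcl2l1* in CCL21+ over double-negative TECs (-0.05) was 0.007 with DESeq2's size factors or DESeq2, 0.022 with at least 10 counts and -0.142 to 0.051 with a library left out. In RANK+ over double-negative TECs *Bak1* (-0.01) was 0.124, 0.103 and 0.123 with DESeq2's size factors, upper-quartile scaling and DESeq2, 0.037 with no filter, 0.189 with at least 10 counts, 0.025 without Gm26917 and Gm42418, 0.002 with the replicate block and -0.037 to 0.050 with a library left out. *Bmf* (-0.10) was 0.036, 0.014, 0.035 and 0.101 with DESeq2's size factors, upper-quartile scaling, DESeq2 and at least 10 counts. With a library left out, *Bid* ran from -0.198 to 0.032 and *Pmaip1* from -0.506 to 1.167 in CCL21+ over double-negative TECs.

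Same-numbered libraries deviated together with correlations between -0.272 and 0.277 (mean 0.010 over 7 pairs). These correlations cannot decide pairing, because the deviations of the double-negative libraries are mirror images of each other. The sample titles are numbered consecutively within each replicate number, but the labels do not say that the libraries are paired. The numbers were therefore left out of the main fit and used as a block in an alternative. The 3 same-numbered pairs of CCL21+ and RANK+ libraries were above 0 (0.0713 to 0.277) and 5 of their 6 differently numbered pairs below. With the replicate block 5, 1 and 3 members and 6617, 1913 and 6324 genes were called in the 3 comparisons. Not every RANK+ library correlated best with its own number. The members other than *Pmaip1* had at least 243 counts in every library, whereas *Pmaip1* had 3 in 1 library, where counting error limits its value.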
